A study of Drosophila melanogaster with 2 samples.

Results

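The cytosolic ribosomal protein genes of Drosophila melanogaster were examined for peaks of CG8281, a protein tagged with green fluorescent protein (GFP), in whole embryos. They were taken by symbol, as protein-coding genes named RpL, RpS or RpLP with a number, together with sta, which encodes a small-subunit protein. This gave 93 of 13968 protein-coding genes, 54 of the large subunit and 39 of the small subunit, copies with a second symbol such as RpL22-like included. Whether the product of each gene named -like is part of the ribosome was not examined. The embryos were 0 to 20 hours old and came from a transgenic fly line with GFP at the C-terminal end of CG8281, whose binding was read by ChIP-seq, the sequencing of DNA recovered with an antibody from sheared chromatin. There was 1 group of 2 biological replicates, so no comparison between conditions exists, and no peak list from an untagged line was analysed here. Whole embryos over this span mix many cell types and stages, and a peak cannot be placed in any of them.

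Each cytosolic ribosome holds 1 copy of most of its proteins, and cells use a large share of their transcription to make them in balanced amounts. In Drosophila, loss of 1 allele of many of these genes gives the Minute phenotype of slow development and short, thin bristles. Their transcripts start within a run of pyrimidines called the TCT initiator, in place of the standard initiator, and their promoters often lack a TATA box. In flies the TATA-binding-protein-related factor Trf2, the zinc finger protein M1BP and the DNA replication-related element (DRE) factor Dref are known to act at these promoters.

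A gene was called bound where the summit of a peak of the optimal list lay within 500 bp of any of its annotated transcription start sites (TSSs). The optimal list holds 3921 peaks, which the authors derived from the replicate and pooled lists. By this measure 52 of the 93 genes, 55.9%, were bound (exact 95% interval 45.2 to 66.2%), beside 12.2% of all protein-coding genes (1708 of 13968). Of the large-subunit genes, 33 of 54 were bound, 61.1% (46.9 to 74.1%). Of the small-subunit genes, 19 of 39 were bound, 48.7% (32.4 to 65.2%), and the 2 intervals overlap. The intervals cover counting error over genes and not the difference between the replicates. With the 3921 strongest peaks of 1 replicate in place of the optimal list, 57 members were bound in replicate 1, beside 14.2% of all genes, and 38 in replicate 2, beside 10.2%. The 52 genes had 52 different strongest peaks, and a second optimal peak lay within 500 bp of 1 of them, RpL27A.

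The start regions of the 4 strongest bound genes are printed here. Each line runs from 100 bases before to 49 after the TSS nearest to the summit, on the strand of the gene, on dm6. Capitals mark a TCT initiator (CTTT followed by 2 pyrimidines) with its first C within 20 bp of that TSS, an E-box (CACGTG), the DRE (TATCGATA) or the motif 1 core (GGTCACACT, here on the other strand as AGTGTGACC). The RpS27 line has none of them.
RpS27: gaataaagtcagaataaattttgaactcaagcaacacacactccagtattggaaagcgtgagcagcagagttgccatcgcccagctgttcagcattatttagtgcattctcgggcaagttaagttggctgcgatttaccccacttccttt
RpL34b: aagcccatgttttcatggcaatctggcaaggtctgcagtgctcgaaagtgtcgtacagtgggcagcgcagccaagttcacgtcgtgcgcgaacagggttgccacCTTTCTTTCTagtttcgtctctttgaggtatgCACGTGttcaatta
RpL7: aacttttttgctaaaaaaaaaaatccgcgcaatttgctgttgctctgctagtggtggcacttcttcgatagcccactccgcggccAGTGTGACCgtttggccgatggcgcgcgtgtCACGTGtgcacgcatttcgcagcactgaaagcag
RpS30: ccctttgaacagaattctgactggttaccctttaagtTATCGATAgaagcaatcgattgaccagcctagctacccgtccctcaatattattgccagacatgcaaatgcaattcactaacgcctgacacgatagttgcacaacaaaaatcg
On dm6 these are chr3R:25247465-25247614 (minus strand), chr3R:9401177-9401326 (minus), chr2L:10200904-10201053 (plus) and chr3R:20850416-20850565 (plus).

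RpS27 (FBgn0039300), a small-subunit gene on 3R from 25245955 to 25247514, had the strongest of the members' peaks. Its peak spanned 25247359 to 25247657, and its summit lay 16 bp downstream of the TSS, in the 5′ UTR. The signal was 593.0 in the optimal and pooled lists at rank 523, 403.6 in the list of replicate 1 at rank 330, and 175.5 in that of replicate 2 at rank 1124. Signal is the authors' value per peak and its scaling is not stated, so it is compared within a list only. At every optimal peak of a member the pooled list holds the same signal, and it is given once from here on.

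RpL34b (FBgn0037686, 3R, 9400237 to 9401226), a large-subunit gene, had a signal of 492.7 in the optimal list, 314.5 in replicate 1 and 180.8 in replicate 2. RpL7 (FBgn0005593, 2L, 10201004 to 10202321) had 469.8, 342.4 and 117.2 in the same order. RpS30 (FBgn0038834, 3R, 20850516 to 20851427), whose product is made as a fusion to a ubiquitin-like protein in many animals, had 467.1, 274.2 and 198.4. All 3 ranked better in replicate 1 than in replicate 2, RpS30 at ranks 555 and 971.

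RpLP0 (FBgn0000100, 3L), the base of the ribosomal stalk that recruits translation factors, had 378.6 in the optimal list, 233.7 in replicate 1 and 141.1 in replicate 2. RpL23A (FBgn0026372, 3L), a protein beside the exit of the peptide tunnel, had 376.5, 239.7 and 138.7. Both peaks also ranked better in replicate 1.

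RpL28 (FBgn0035422, 3L) had 372.9 in the optimal list and 267.1 in replicate 1 but 67.7 in replicate 2, where it ranked 4313. Among the members described so far it was the one with the widest gap between the ranks of the replicates. RpS4 (357.0), RpS20 (351.3), RpS25 (343.4) and RpL14 (343.1) were also among the 12 strongest, with replicate 1 signals from 201.3 to 208.1 and replicate 2 signals from 137.5 to 155.6. The first 12 thus held 7 large-subunit and 5 small-subunit genes.

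By arm, 10 of 19 genes were bound on 2L, 10 of 21 on 2R, 8 of 14 on 3L, 14 of 23 on 3R, 9 of 15 on X and the 1 gene on chromosome 4, RpS3A. Of all protein-coding genes, 11.3 to 13.8% were bound on each of the 5 large arms and 3.75% on chromosome 4. Over the 52 bound genes the signal had a median of 249.7 and ran from 126.5 to 593.0, and the ranks ran from 523 to 3774 with a median of 1638.5. The other 1656 bound protein-coding genes had a median signal of 236.1. None of the 52 had a signal above 1000, a level that 84 of the 1656 other genes passed, 5.07%. With 0 of 52, the exact interval allows a share of up to 6.85%. Large-subunit genes had a median of 260.7 and small-subunit genes of 208.2, with ranges that overlap widely. The weakest bound genes were RpL37-1 at 126.5, RpS6, the classic substrate of S6 kinase, at 128.8, and RpL18 at 130.0.

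**Figure D1:**
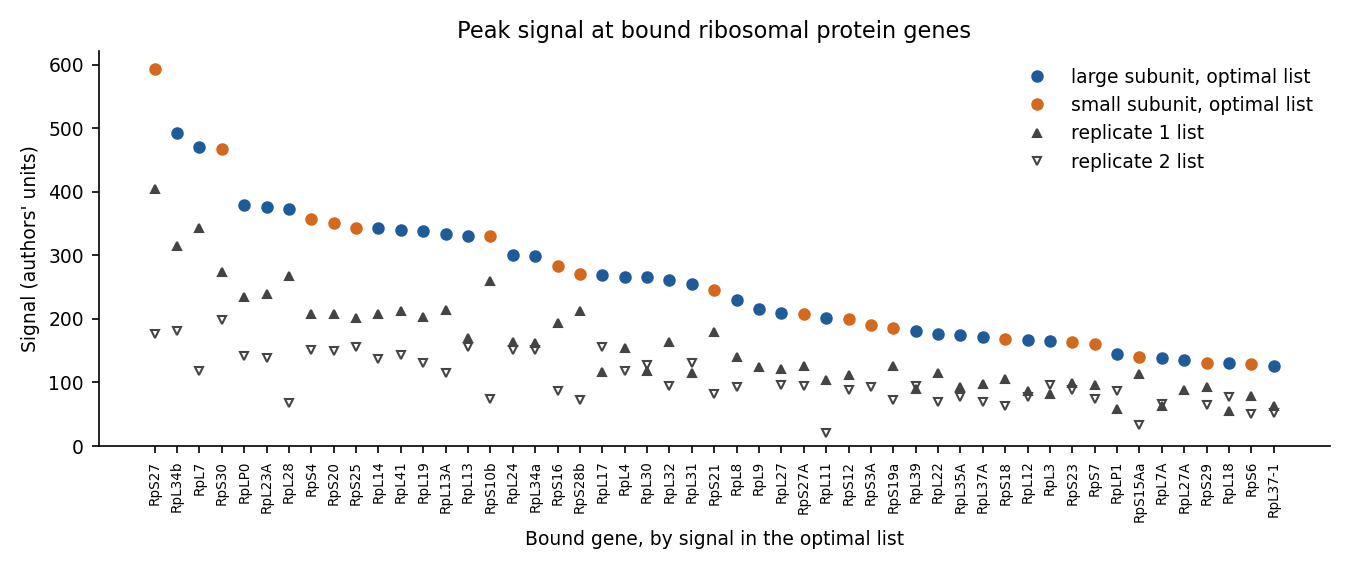
Signal of the peak (vertical axis, authors' units) at 51 of the 52 bound genes, ordered by signal in the optimal list; circles give the optimal list by subunit and triangles the lists of the replicates. The optimal values fall from 593.0 at RpS27 to 126.5 at RpL37-1, and large- and small-subunit genes are mixed along the order.

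The summits lay close to the TSS. The signed distance to the nearest own TSS had a median of -21 bp, where a negative value is upstream, with an interquartile range of -44.75 to 3.5 bp, and no summit lay more than 45 bp downstream. Other bound genes had a median of -154 bp with quartiles of -250 and -78.75 bp. Of the ribosomal protein genes 40 of 52, 76.9% (63.2 to 87.5%), had the summit within 50 bp of a TSS, as had 160 of 1656 other bound genes, 9.66% (8.28 to 11.2%). Within 100 bp the shares were 90.4% and 22.9%, and within 150 bp they were 52 of 52 and 43.5%. By annotation, 30 summits lay upstream of the gene, 22 in the 5′ UTR and 0 in coding sequence.

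RpS7 had its summit 2 bp downstream of a TSS, RpS18 3 bp and RpS30 5 bp downstream. Among the farthest were RpS20 at -134 bp and RpL34a at -117 bp, and each of these shares its promoter with a neighbour. Median positions were -31 bp for large-subunit and -11 bp for small-subunit genes. A summit was upstream in 37 of 52 ribosomal protein genes, 71.2% (56.9 to 82.9%), and in 85.3% of other bound genes.

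**Figure D2:**
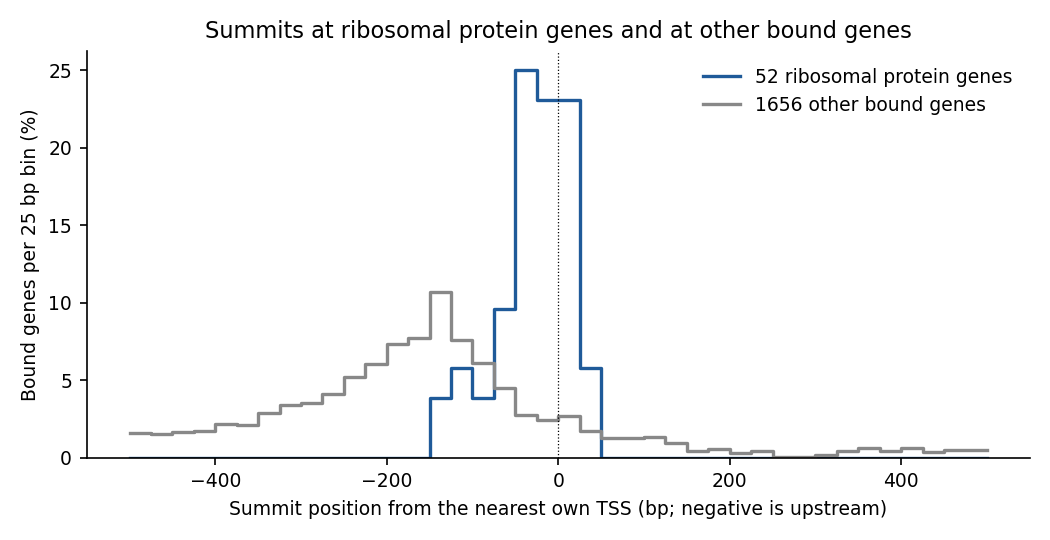
Share of bound genes (vertical axis, percent per 25 bp bin) by the position of the summit from the nearest own TSS (horizontal axis, bp), for the 52 ribosomal protein genes and 1656 other bound genes. The ribosomal protein genes fill the bins between -150 and 50 bp, while the other genes spread over the whole window with a median of -154 bp.

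The same placement was found in each replicate's own list, with 41 of 51 bound genes within 50 bp in replicate 1 (80.4%, beside 10.9% of other bound genes) and 37 of 50 in replicate 2 (74.0%, beside 9.30%). The 52 bound ribosomal protein genes have a median of 2 annotated TSSs, and several TSSs shorten the distance to the nearest one. Of the 52 genes 23 have 1 annotated TSS, and of the 1656 other bound genes 861, so this can act unequally on the groups. Among bound genes with 1 annotated TSS, 15 of 23 ribosomal protein genes (65.2%) and 63 of 861 others (7.32%) had the summit within 50 bp. When only the 5′-most TSS was used, the shares were 63.5% and 9.53%. Among other bound genes with signals no higher than that of RpS27, 9.22% had the summit within 50 bp. The summits of the replicates lay a median of 29 bp apart at the 49 bound genes with one in both lists, which limits how finely these positions can be read. Peaks at bound ribosomal protein genes had a median width of 243.5 bp, beside 369 bp for all optimal peaks.

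The TCT initiator was searched on the sense strand with its first C within 5 bp of any annotated TSS. It was found in 37 of 52 bound ribosomal protein genes, 71.2% (56.9 to 82.9%), and in 19 of 41 unbound ones, 46.3% (30.7 to 62.6%). Among other bound genes 68 of 1656 held it, 4.11%, and among all protein-coding genes 2.50%. Within 20 bp of a TSS the shares were 94.2%, 73.2%, 13.6% and 9.36%. Limited to genes with 1 annotated TSS, the counts were 14 of 23 bound and 9 of 25 unbound ribosomal protein genes, 60.9% and 36.0%, beside 1.55% of all such genes. Read from the other side, 37 of 56 members with the initiator were bound, 66.1% (52.2 to 78.2%), and 15 of 37 without it, 40.5% (24.8 to 57.9%). Among members with no second copy by symbol, 31 of 45 with it were bound, 68.9% (53.4 to 81.8%). Without it the count was 10 of 21, 47.6% (25.7 to 70.2%), and the intervals overlap in both comparisons.

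For 11 of the 37 bound genes the initiator nearest to the summit stood at another TSS than the nearest one. At RpS27 that TSS lies 42 bp downstream of the nearest one, at RpL7 96 bp and at RpS30 81 bp, so the printed lines of the 3 genes carry no mark for it. Measured from the initiator's first C, the summit of RpS27 lay at -30 bp, that of RpL7 at -54 bp and that of RpS30 at -72 bp. All 3 summits that are downstream of their nearest annotated TSS are thus upstream of the initiator. Over the 37 genes the summit lay a median of -40 bp from the initiator, from -142 to 23 bp, and 33 of 37 summits were upstream of it. The 68 other bound genes with a TCT initiator had a median of -167.5 bp from it, from -38871 to 32257 bp. For 37 of the 68 the initiator nearest to the summit stood at another TSS than the nearest one. Of the summits of the 68, 10.3% lay within 50 bp of the initiator, beside 62.2% at the 37 ribosomal protein genes. Some initiators of the 68 were thus far from the peak, so these distances do not compare the groups like for like.

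A further 9 short sequences were counted in the promoter, from 250 bases before the 5′-most TSS to 50 from it, on either strand. The DRE was present in 17 of 52 bound (32.7%) and 11 of 41 unbound ribosomal protein genes (26.8%), beside 11.4% of other bound genes and 9.36% of all genes. CGATA, which is part of the DRE, was in 73.1%, 73.2%, 47.0% and 47.3% in the same order. The motif 1 core, the sequence M1BP is known to bind, was in 13.5%, 7.32%, 6.64% and 6.04%, and the E-box in 7.69%, 9.76%, 5.01% and 4.20%. For the DRE, the motif 1 core, the E-box and CGATA the exact intervals of bound and unbound members overlap.

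TATAAA was in 50% of bound and 46.3% of unbound ribosomal protein genes and in 45.8% of all genes. The standard initiator core TCAGT was in 32.7% and 36.6%, beside 51.5% of all genes, and GAGAG in 17.3% and 17.1%, beside 29.7%. GATAA was in 59.6%, 51.2% and 55.1%, and the Zelda-type CAGGTA in 1 bound and 3 unbound members, beside 6.24% of all genes. Within 100 bp of the summit, the DRE was found at 30.8% of the bound ribosomal protein genes, 4.65% of other bound genes and 1.63% of all optimal peaks. TATAAA was found at 21.2%, 40.7% and 32.1% of these groups. Member summits lay nearer to a TSS than those of other bound genes, so these windows differ in place. Windows of 100 bp around a TSS were also counted, the nearest to the summit for bound members and the 5′-most for other groups. There the DRE was in 30.8% of bound members, 24.4% of unbound members and 7.83% of all genes, and TATAAA in 21.2%, 12.2% and 29.2%. A match is a description of the letters and not evidence of a factor. The windows around summits also differed in base composition. Their median GC content was 43.8% at bound ribosomal protein genes, 33.3% at other bound genes and 36.8% over all optimal peaks. The part of place and of composition in these shares was not tested.

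**Figure D3:**
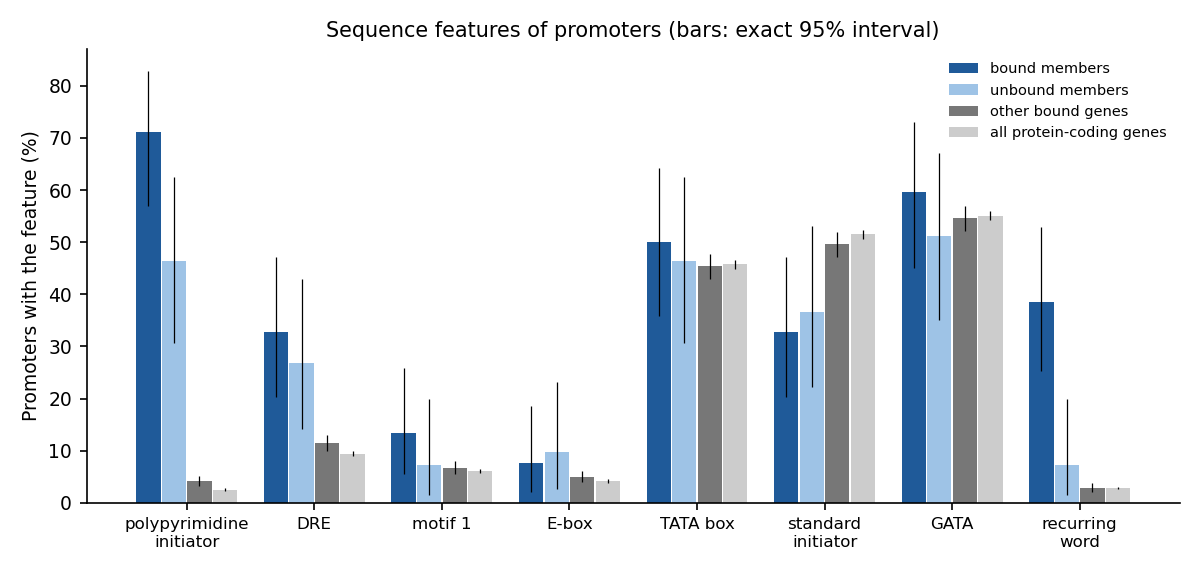
Share of promoters with each sequence feature (vertical axis, percent; lines are exact 95% intervals) in bound and unbound ribosomal protein genes, other bound genes and all protein-coding genes. The polypyrimidine (TCT) initiator was at 71.2% and 46.3% in bound and unbound ribosomal protein genes, and the recurring word at 38.5% and 7.32%. That word, CCGGAAA, was chosen after its counts on the bound genes were seen, so its bars are no test.

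Among all words of 8 bases within 100 bp of the bound summits, the commonest were pyrimidine runs, the DRE and words around CCGGAAA. TTTCTTTT (or its reverse complement) was near 21 of 52 summits, 40.4%, and TATCGATA near 16, 30.8%. Near the summits of other bound genes they were at 5.68% and 4.65%. Within 100 bp of the 5′-most TSS of unbound members they were at 22.0% and 24.4%. TTTCCGGT and GTTTCCGG were near 13 each, 25%, beside 1.10% and 0.663% of all optimal peaks. Their shared core CCGGAAA was chosen after its counts on these genes were seen, so the shares that follow describe the members and are no test.

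CCGGAAA was in the promoter of 20 of 52 bound ribosomal protein genes, 38.5% (25.3 to 53%), and of 3 of 41 unbound ones, 7.32% (1.54 to 19.9%). It was in 2.90% of other bound promoters and 2.82% of all promoters. From 250 bases before to 100 from the TSS nearest to the summit, 23 bound genes held 25 such sites, and 23 of the 25 read TTTCCGG on the strand of the gene. The first base of the sites lay a median of 21 bp downstream of the TSS, from -60 to 91 bp, and the site was a median of 34 bp from the summit. Shown here to let the places of the 2 sequences be compared, 6 of the strongest bound genes have TTTCCGG inside the stretch from 40 bases before to 59 after the TSS. Capitals mark this word, a TCT initiator with its first C within 20 bp of the TSS and the E-box, and neighbouring marks can run together.
RpL14: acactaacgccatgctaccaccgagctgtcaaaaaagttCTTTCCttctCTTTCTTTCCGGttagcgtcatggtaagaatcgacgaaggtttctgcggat
RpS10b: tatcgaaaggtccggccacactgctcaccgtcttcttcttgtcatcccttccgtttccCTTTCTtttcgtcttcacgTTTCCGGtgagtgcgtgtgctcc
RpL34a: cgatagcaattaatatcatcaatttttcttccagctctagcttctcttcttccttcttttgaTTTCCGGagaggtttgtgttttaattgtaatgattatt
RpL17: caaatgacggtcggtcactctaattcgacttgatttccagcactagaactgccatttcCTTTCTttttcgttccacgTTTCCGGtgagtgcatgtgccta
RpL4: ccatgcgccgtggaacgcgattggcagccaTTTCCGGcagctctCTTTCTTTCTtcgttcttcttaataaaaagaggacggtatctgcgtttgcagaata
RpL32: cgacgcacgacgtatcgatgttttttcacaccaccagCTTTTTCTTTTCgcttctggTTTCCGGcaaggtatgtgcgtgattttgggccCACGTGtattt
On dm6 they are chr3L:8600966-8601065 (plus), chrX:19597991-19598090 (plus), chr3R:26059208-26059307 (minus), chrX:6744179-6744278 (minus), chr3R:27922781-27922880 (plus) and chr3R:30046102-30046201 (minus).

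In RpS10b and RpL17 the site starts 37 bp after the TSS in both, in RpL14 14 bp, in RpL34a 22 bp and in RpL32 17 bp after it, and in RpL4 10 bp before it. Of the 23 members with CCGGAAA in the promoter, 20 were bound, 87.0% (66.4 to 97.2%), and of the 70 without it 32 were bound, 45.7% (33.7 to 58.1%). Among members with no second copy the counts were 17 of 19 and 24 of 47. Genes outside the family that hold CCGGAAA were bound in 48 of 371 cases, 12.9% (9.70 to 16.8%), beside 11.9% of all genes outside the family. The 23 bound genes with it near the TSS had a median signal of 201.2 and the 29 without it 300.5. CCGGAAA and the DRE were both present near 5 of the 52 TSSs, and neither was present near 18.

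The peak of 25 of the 52 bound genes, 48.1% (34.0 to 62.4%), was also within 500 bp of a TSS of another protein-coding gene. Among other bound genes the share was 51.2%. The 25 peaks reached 26 partner genes, of which 25 were divergent, transcribed away from the ribosomal protein gene. Ip259 is the exception, with the strand and start of RpS27A, a gene whose product is made fused to ubiquitin. The summit was nearer to the TSS of the ribosomal protein gene in 24 of 26 pairs. It was nearer to the partner in RpL34a, by -117 bp against -112 bp from the start of the tRNA methyltransferase gene Trmt61, and at equal distance in RpS27A.

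By signal, the first of these pairs was RpS27 with the nucleoporin gene Nup37, whose TSSs are 144 bp apart, with the summit at 16 bp from RpS27 and -160 bp from Nup37. RpL34b and CG8132 are 269 bp apart, and the summit lay -115 and -154 bp from them. RpL7 and Ripalpha have starts 30 bp apart, the closest of the divergent pairs, and the summit lay inside RpL7. RpLP0 and CG7130 are 336 bp apart.

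RpL28 and eIF1, an initiation factor gene, start 381 bp apart, with the summit at -71 bp from RpL28 and -310 bp from eIF1. RpL14 and Nelf-E, which encodes a subunit of the negative elongation factor, start 127 bp apart, with the summit at -31 and -96 bp. RpS20 with CG17271, RpS25 with CG4820 and RpL41 with the sodium channel gene NaCP60E were also among the first 10 pairs, at 333, 248 and 182 bp. RpL13 and Dref start 84 bp apart, with the summit at -37 bp from RpL13 and -47 bp from Dref. Because 1 summit serves both genes of a pair, the lists cannot say which of them the peak belongs to.

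Shared peaks were the stronger ones among the 52, with a median signal of 330.3 for 25 shared and 189.9 for 27 unshared peaks, and with ranges of 130.0 to 593.0 and 126.5 to 467.1 that overlap. Their summits lay farther upstream, at a median of -37 bp against -9 bp. Of all 93 ribosomal protein genes, 38 have the TSS of another gene within 500 bp, 40.9% (30.8 to 51.5%), beside 30.8% of all protein-coding genes. Among the 41 unbound ones there were 13, 31.7%.

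**Figure D4:**
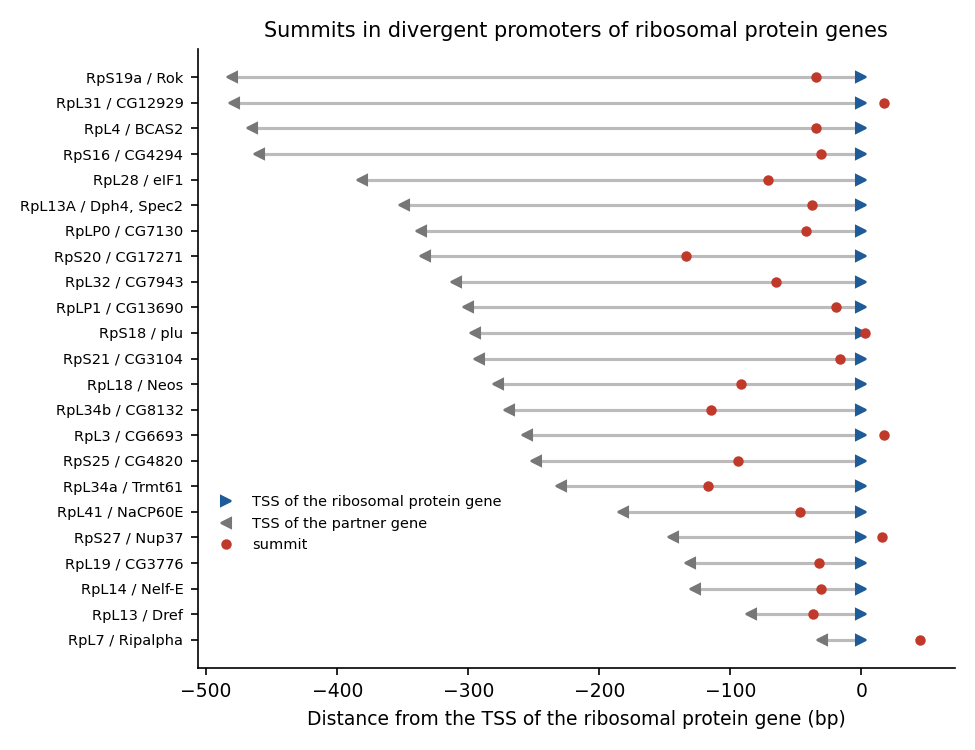
Divergent pairs of bound ribosomal protein genes and their partners, each row 1 pair, with the TSS of the ribosomal protein gene at 0 and the partner's TSS to the left (horizontal axis, bp); circles mark summits. The summit is nearer to the ribosomal protein gene in every row except that of RpL34a with Trmt61, where it is nearly midway.

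Both replicates had a summit within 500 bp at 49 of the 52 bound genes, 94.2%, and at 86.2% of other bound genes. The optimal list was derived from the replicates, so this is no independent measure. RpL9 and RpL27A had no summit in the list of replicate 2, and had signals of 125.0 and 88.1 in replicate 1. RpS3A, on chromosome 4, had none in replicate 1 and 92.6 in replicate 2. RpL11, which joins 5S ribosomal RNA with RpL5, ranked 1988 in replicate 1 and 23148 in replicate 2.

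The members ranked better in replicate 1. This held for 44 of the 49 genes, 89.8% (77.8 to 96.6%), and for 901 of 1428 other bound genes, 63.1% (60.5 to 65.6%). Median ranks were 1391 in replicate 1 and 2684 in replicate 2 for the ribosomal protein genes, and 1525.5 and 1905.5 for the others. The rank in replicate 2 was a median of 1.88 times that in replicate 1, from 0.776 to 11.6, beside 1.25 times for other bound genes. Signals of the 49 peaks in the replicates had a Spearman rho of 0.603, and those of the 1428 others 0.713, as descriptions across peaks that share 2 libraries.

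**Figure D5:**
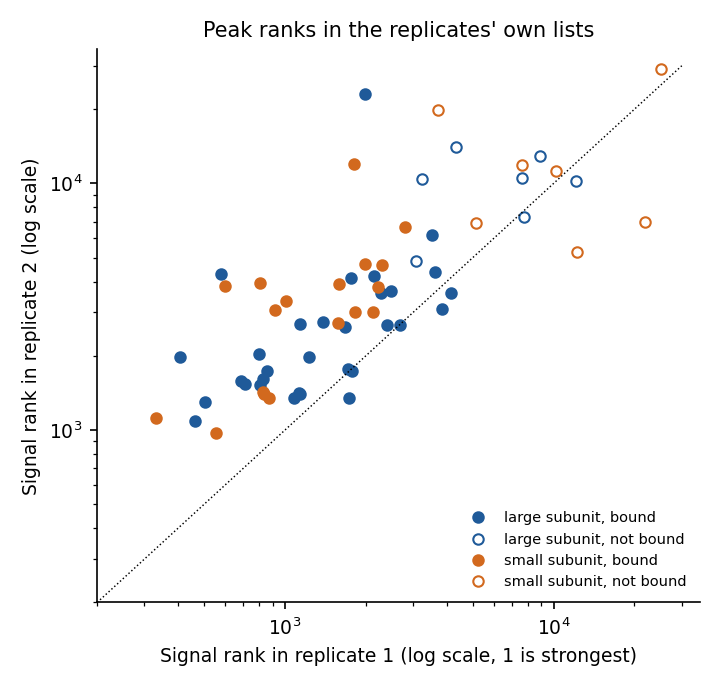
Signal rank in the list of replicate 1 (horizontal, log scale) and replicate 2 (vertical, log scale) for the ribosomal protein genes with a summit in both lists, 49 bound (filled) and 14 unbound (open); the dotted line marks equal rank. Of the bound genes 44 lie above the line, and RpL11 is the highest of them at 23148.

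Of the 41 genes that were not bound, 20 had a summit within 500 bp in the full pooled list of 30000 peaks, 27 in the full list of replicate 1 and 18 in that of replicate 2. Counting the bound genes too, the members with a summit were 72, 78 and 68 of 93, beside 36.3%, 41.2% and 33.8% of all protein-coding genes in these lists. The strongest pooled peaks of unbound genes included those of RpS15 (94.6), RpL23 (93.7), the stalk protein gene RpLP2 (87.6) and RpL10Ab (85.9). These lie below 126.5, the signal of the weakest bound gene, RpL37-1. RpLP1, the partner of RpLP2 in the stalk, was bound with 144.0.

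In the replicates the unbound genes split. Both lists had a summit at 14, only that of replicate 1 at 13 and only that of replicate 2 at 4. Among the 13, RpL36 had a signal of 105.3 at rank 1966 of replicate 1 and RpL26 67.0 at rank 3288, named after their values were seen. These ranks lie among those of the bound genes in that list, which ran from 330 to 4159 at the 49 genes in both lists. RpL36 and RpL26 had no summit within 500 bp in the pooled list.

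No summit in any list was found within 500 bp of 8 genes. They were RpL10Aa, RpL24-like, RpL37-2, RpS2, RpS24, RpS26, RpS28-like and RpS28a. RpS2, RpS24 and RpS26 are the single-copy genes among them, and the other 5 are by symbol copies of another gene. At RpS19b the nearest optimal summit lay 870 bp away with a signal of 177.8, and it was the one member with a nearest summit beyond 500 and within 1000 bp.

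Members with a second copy by symbol, 27 genes in 13 families, were bound in 11 cases, 40.7% (22.4 to 61.2%). Members with none were bound in 41 of 66, 62.1% (49.3 to 73.8%). In 9 families 1 copy was bound, in RpL34 both were, and in 3, RpL10A and RpS14 among them, neither was. The bound copies were RpL22 and not RpL22-like, RpL24 and not RpL24-like, RpL37-1 and not RpL37-2, and RpL7 and not RpL7-like. They were also RpLP0 and not RpLP0-like, RpS10b and not RpS10a, RpS15Aa and not RpS15Ab, RpS19a and not RpS19b, and RpS28b and not RpS28a or RpS28-like.

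A TCT initiator within 20 bp of a TSS was present in the bound copy of each of these 9 families and absent from the unbound copy of RpL24, RpLP0, RpS10, RpS15A, RpS19 and RpS28. In RpL22, RpL37 and RpL7 the unbound copy had it too. The coding sequences of RpS15Aa and RpS15Ab are 98.2% identical and those of RpS14a and RpS14b 97.8%, while their aligned promoters match at 51.0% and 55.3% of positions. RpS14a and RpS14b lie 221 bp apart on X. Counted by protein, with copies joined by symbol, 51 of 79 had at least 1 bound gene.

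Ribosomal protein genes are known hosts of small nucleolar RNAs (snoRNAs) in their introns. Of the 93, 29 hold an annotated snoRNA, and 20 of these 29 were bound, 69.0% (49.2 to 84.7%). Other protein-coding snoRNA hosts were bound in 17 of 55 cases, 30.9% (19.1 to 44.8%), beside 12.2% of all protein-coding genes. RpS7 with 7 is the bound gene with most. Neighbouring members within 100000 bp formed 13 pairs, of which RpL12 with RpL39, RpL3 with RpS25, RpS12 with RpS4, RpS20 with RpS30 and RpL19 with RpL41 had both genes bound. Among pairs with neither gene bound were RpS14a with RpS14b and RpLP2 with RpS15. No expected number of such pairs is given here, so the list is a description only.

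Other genes of translation were counted in the same way, to be read beside the 12.2% of all protein-coding genes that were bound. Mitochondrial ribosomal protein genes were bound in 13 of 73 cases, 17.8% (9.84 to 28.5%), with a median position of -151 bp and 0 summits within 50 bp. The strongest were mRpL41 (2113.6), mRpS10 (1934.2), mRpS23 (1432.2) and mRpL23 (963.5), all above RpS27. Initiation factor genes were bound in 6 of 44 cases, 13.6%, led by eIF6 (1016.3), eIF4EHP (984.7), eIF1 (372.9) and eIF3h (243.8), also with 0 within 50 bp. Of ribosome biogenesis genes 4 of 29 were bound, 13.8%, namely eIF6, Ns2 (595.6), Nnp-1 (168.0) and Nopp140 (137.5).

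Elongation and release factor genes were bound in 5 of 9 cases, and 3 of the 5 summits lay within 50 bp of a TSS. They included eEF1gamma (559.1, -45 bp), eRF3 (200.3, -97 bp), eEF1alpha1 (174.4, -68 bp) and eEF2 (155.9, 36 bp). Of 3 ribosome-associated factor genes, Nacalpha (261.4) and Rack1 (215.1), a scaffold on the small subunit, were bound, with summits at -8 and 4 bp. With 9 and 3 genes these lists are too short to set their shares beside that of the ribosomal proteins. Of 12 genes for regulators of ribosomal protein genes or the Minute response, 6 were bound, REPTOR (674.9), M1BP (480.0), Irbp18 (424.1), Dref (330.3), foxo and Max, and the summit of Dref is the one it shares with RpL13.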

How the data were processed

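The 2 libraries are biological replicates of CG8281-GFP embryos, with chromatin sheared to 200 to 800 bp, per the labels. The deposited peak lists on dm6 hold, per peak, the summit's offset in bases (another whole number), a signal value and a q value as −log10. Per the labels, the lists of each replicate and of the pooled replicates (30000 peaks each) were called by the authors against a control alignment, and the optimal list of 3921 peaks was derived from those 3. Not given in the sources used here are the aligner, the peak caller and its cutoffs. Depth is unknown. The −log10 q in the deposited files was not used further.

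Summits were assigned to TSSs of Ensembl release 115 with Python 3.11.15, NumPy 2.4.6 and pandas 2.3.3, and each gene took its strongest peak. Exact Clopper-Pearson intervals at 95% came from SciPy 1.17.1, alignments of copies from Biopython 1.88 and plots from Matplotlib 3.10.9. Sequences were read from the RefSeq genome of the same assembly. The assignment was tested on simulated peaks. No test between samples was possible with 1 group.

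The members and lists were chosen with earlier results of these data known. Genes were named by rule: the 12 strongest bound members, the 3 nearest to and 3 farthest from a TSS, the first 10 shared peaks by signal with their partners, members missing from 1 replicate, members with copies, the 5 strongest unbound ones, those with no peak, those with one beyond 500 and within 1000 bp, and up to 4 bound genes of each other list. Members, and genes of the other lists such as foxo and Max, that are named outside this rule were chosen after their values were seen. Some members that the rule names are not reported here by name, and stay in the counts.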

Additional observations from a re-analysis of the deposited data

How the results depend on the processing

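Bound ribosomal protein genes stayed at 52 with a window of 250 bp, with the 5′-most TSS and with any overlap of the peak interval. At 1000 bp they were 53, with RpS19b added. Of all protein-coding genes, 9.13% were bound at 250 bp, 10.3% with the 5′-most TSS, 13.3% with any overlap and 14.8% at 1000 bp. All 52 summits lay within 150 bp of a TSS, so the window of 250 bp could not lower the count. With the stronger 1960 peaks of the optimal list, 28 ribosomal protein genes were bound, 19 of the large and 9 of the small subunit, beside 944 of all genes, and 24 summits were upstream. With the 7842 strongest pooled peaks, 62 were bound, beside 2703 of all genes.

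With the 3921 strongest peaks of 1 replicate, bound ribosomal protein genes were 38 (without replicate 1) and 57 (without replicate 2), with 25 and 36 of the large subunit and 13 and 21 of the small, beside 1422 and 1983 of all genes. Shared peaks ran from 21 to 28, upstream summits from 25 to 47, the median position from -23 to -19.5 bp and the median rank from 1569 to 2705.5. Without replicate 1, 14 bound genes were lost and 0 gained, and without replicate 2, RpL18 and RpS3A were lost and 7 gained (among them RpL23, RpL26, RpL36, RpLP2 and RpS14b). The cause was not tested. No paired analysis was possible because there is 1 group.

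Within 100 bp of the summit in place of the promoter, bound genes with TATAAA fell from 26 to 11, with GAGAG from 9 to 5, with TCAGT from 17 to 8, with GATAA from 31 to 20 and with CAGGTA from 1 to 0, in windows that are shorter and placed elsewhere. The DRE, the motif 1 core, the E-box and CGATA stayed within 1.5 times. The 37 bound genes with a TCT initiator became 49 with a limit of 20 bp and 27 at the TSS nearest to the summit, and were 14 of the 23 with 1 annotated TSS. The counts for CCGGAAA, for genes with 1 annotated TSS, at the TSS nearest to the summit and for members with no second copy were chosen after seeing the data. Peak lists without read counts limit every comparison of strength to ranks within a list.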

Other observations

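Outside the family, genes with a TCT initiator within 5 bp of a TSS were bound in 68 of 293 cases, 23.2% (exact 95% interval 18.5 to 28.5%), and genes without it in 1588 of 13582 cases, 11.7% (11.2 to 12.2%). Both calls use any annotated TSS, so genes with several TSSs have more chances of each. Limited to genes with 1 annotated TSS, 17 of 861 other bound genes held the initiator, 1.97% (1.15 to 3.14%). Among all protein-coding genes with 1 TSS, ribosomal protein genes included, the share was 1.55%. Of those 68 bound genes, 15 had the summit within 50 bp of the nearest TSS, 22.1%, beside 29 of the 37 bound ribosomal protein genes with the initiator, 78.4%. The initiator stood at another TSS than that one in 37 of the 68 and in 11 of the 37. The 8 other genes with both the initiator and CCGGAAA in the promoter were all unbound, and 0 of 8 allows a share of up to 36.9%. Genes outside the family with the DRE in the promoter were bound in 189 of 1279 cases, 14.8% (12.9 to 16.8%), with the summit within 50 bp in 12.2% of the bound ones.

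Among the bound genes of the other translation lists, the TCT initiator was present at mRpL23, mRpS6, eEF2, Rack1 and REPTOR, and CCGGAAA at mRpS2, eIF5B, eEF1gamma and eEF5, named after their values were seen. The summits of eEF2 and Rack1 lay at 36 and 4 bp, and those of mRpL23, mRpS6 and REPTOR at 63, -131 and -124 bp. RpS27A and RpL40 encode the fusions of ubiquitin to a ribosomal protein, and RpS27A was bound while RpL40 had a summit in the list of replicate 2, at rank 23948. RpL11 was bound while RpL5, the other protein of the 5S particle, had a pooled signal of 57.3 at rank 10059.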
